A study of Mus musculus with 7 samples.

Results

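The 3527 regions described here were bound segments, found by chromatin immunoprecipitation of HNF4a from mouse liver, that lay inside an intron of one gene (the host) but that the deposited table assigned to another gene. They were chosen as the rows whose annotation began with an intron, whose host name differed from the assigned gene name, and whose assigned name was not a microRNA name. They made up 8.88% of the 39704 regions in the table and 19.8% of its 17813 intronic regions. A further 13712 intronic regions were assigned to the gene whose intron held them and serve as the comparison, and 574 were assigned to a microRNA gene and are left aside.

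The AMPKCA livers came from mice with constitutively active AMPK, and the Wildtype livers from mice labelled only as wild type. Mice of both genotypes had been on a high-fat diet with doxycycline for 14 days, and the antibody was ab41898 in every library. Each genotype had 3 libraries, 1 in each of 3 labelled batches. The subunit that was made active, its promoter, the sex and the age of the mice were not given in the sources used here, and nothing said whether a library came from 1 animal or from a pool. A pooled input library, labelled AMPKCA and batch 1, had no column in the table and was not analysed here, so that the number of DNA copies in the chromatin could not be told apart from HNF4a binding. In whole liver, a change in the share of cells with HNF4a and a change in binding per cell cannot be told apart either.

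HNF4a is a nuclear receptor that binds DNA as a homodimer, at direct repeats of a short half-site, and it is one of the factors that set hepatocyte identity and the hepatic programmes of lipid, bile acid, glucose and plasma protein metabolism. AMPK is the kinase that responds to low cellular energy by restraining synthesis of lipid and promoting its oxidation. An annotation tool such as HOMER gives a region 2 names by separate rules: the gene feature under the region, and the gene with the nearest start site. A distal element inside a long gene therefore often carries the name of a neighbour, and neither name shows which gene it acts on.

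The libraries had between 536027 and 1622087 reads in all regions and between 47763 and 124387 in the 3527. The values are reads scaled per library, and 1 read was worth between 0.667 and 1.797 units. Among marker genes looked up, regions were present at 5 of 5 hepatocyte, 3 of 4 cholangiocyte, 1 of 3 Kupffer cell, 3 of 3 endothelial and 0 of 3 stellate cell markers. The hepatocyte markers had 7 to 16 regions each, the strongest with a mean of 155.6 units at Apob, and the other markers had at most 3 each, the strongest with 39.1 units at Stab2. Wildtype replicate 1 stood apart from the other Wildtype libraries. Over the 3527 regions its log2 values correlated with those of Wildtype replicates 2 and 3 at r = 0.49 and 0.59, against 0.73 between replicates 2 and 3, and its values were relatively high close to start sites and low far from them.

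Sequence could be shown for the few regions that overlapped a promoter window of the RefSeq table (GRCm38.p6, the genome version also called mm10), which runs from 250 bases before to 50 bases after a start site. Of the 3527 regions, 54 overlapped such a window. In 17 of them the start carried the same symbol as the host, and in 9 that of the assigned gene. Host starts that RefSeq lists under another symbol are not in the 17. Examples are March6 (Marchf6), March7 (Marchf7), Sept7 (Septin7) and Epb4.1 (Epb41). The letters CAAAGNNCA, part of an HNF4-type site, were searched on both strands (TGNNCTTTG on the other). They occurred in 2089 of 32851 RefSeq windows (6.36%) and in 5 of the 63 windows met by these regions (7.94%), which describes the letters and not binding. The 5 include overlapping windows of the Gm33006 start, in the Rmdn2 region assigned to Cyp1b1, that share the same match. Some other starts also have more than 1 window among the 63. The 4 sequences below show the kinds of position these regions take: an intron that starts an unnamed transcript, an internal start of the host, the start of the assigned gene, and the only 1 of the 4 regions called higher in AMPKCA livers that met a window. They are printed on the strand of the gene that starts there, with matches in capitals.
1810019D21Rik start in the region assigned to Esrp2, chr8:106135150-106135449, plus strand: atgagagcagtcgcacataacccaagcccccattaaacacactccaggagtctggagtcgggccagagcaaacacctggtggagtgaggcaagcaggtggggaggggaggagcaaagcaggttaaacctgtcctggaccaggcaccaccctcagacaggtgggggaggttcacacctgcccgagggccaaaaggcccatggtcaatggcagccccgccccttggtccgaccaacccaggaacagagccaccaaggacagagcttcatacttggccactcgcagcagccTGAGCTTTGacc
Rara start in the region assigned to Gjd3, chr11:98964622-98964921, plus strand: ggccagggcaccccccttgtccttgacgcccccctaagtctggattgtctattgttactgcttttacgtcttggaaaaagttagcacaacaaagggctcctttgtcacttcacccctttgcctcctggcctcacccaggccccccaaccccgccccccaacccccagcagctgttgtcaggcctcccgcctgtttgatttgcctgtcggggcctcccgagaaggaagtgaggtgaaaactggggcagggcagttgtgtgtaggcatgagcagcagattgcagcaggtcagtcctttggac
Irs2 start in the region inside 9530052E02Rik and assigned to Irs2, chr8:11008880-11009179, minus strand: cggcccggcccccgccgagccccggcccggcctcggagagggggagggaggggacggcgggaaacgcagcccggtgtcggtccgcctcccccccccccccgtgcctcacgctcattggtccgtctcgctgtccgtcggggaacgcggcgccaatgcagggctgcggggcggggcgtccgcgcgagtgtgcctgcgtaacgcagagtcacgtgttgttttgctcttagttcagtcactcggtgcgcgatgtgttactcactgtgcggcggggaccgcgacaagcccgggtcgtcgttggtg
Gm35484 start in the Pepd region assigned to Cebpg, overlapping part only, chr7:35029226-35029459, minus strand: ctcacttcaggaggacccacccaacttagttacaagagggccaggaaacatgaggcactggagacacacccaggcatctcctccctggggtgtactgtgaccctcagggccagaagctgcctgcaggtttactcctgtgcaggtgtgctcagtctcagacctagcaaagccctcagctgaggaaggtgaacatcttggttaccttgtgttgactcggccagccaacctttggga
The letters of the motif matched in the sequence from the 1810019D21Rik start, and in none of the other 3 of these stretches.

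The regions lay far from the start sites they were assigned to. The distance had a median of 34.0 kb and an interquartile range of 13.6 to 74.5 kb, with a smallest value of 136 bp and a largest of 1207 kb. Among introns of the assigned gene itself the median was 10.5 kb. Beyond 50 kb lay 37.9% of the 3527 regions, against 15.6% of those in the assigned gene's own introns. They were upstream of the assigned start site in 60.8% of cases (2146 regions). Only 15.1% lay in the first intron of their host, against 55.7% of the comparison regions, and the hosts were longer, with a median RefSeq span of 81.6 kb against 36.8 kb. These differences follow in part from the rule itself, since a region next to the start of its host takes the name of the host, so they are given without a test.

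**Figure D1:**
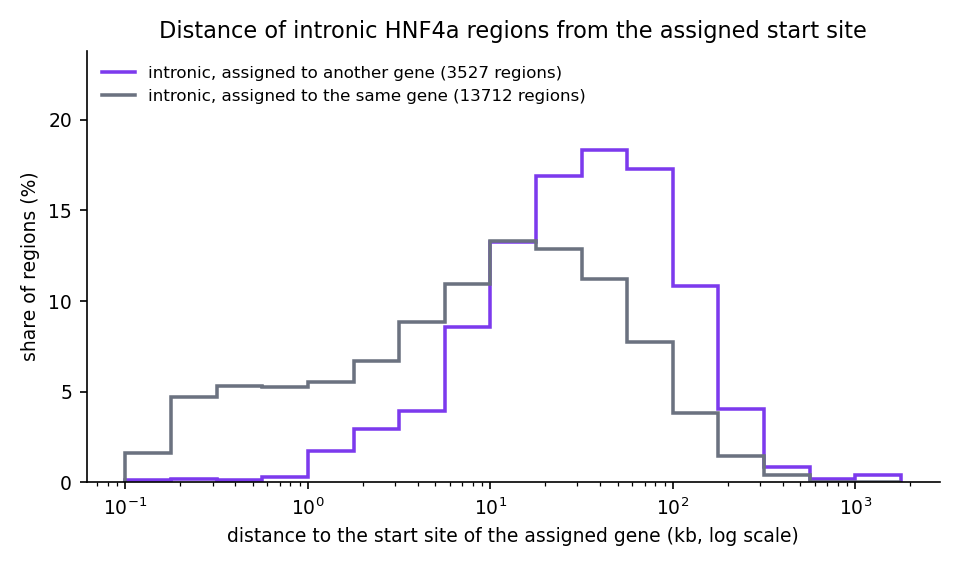
Share of regions (%) in bins of distance to the assigned start site (kb, log scale), for the 3527 intronic regions assigned to another gene and the 13712 assigned to the gene whose intron holds them. The first distribution has its median at 34.0 kb and the second at 10.5 kb.

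The 3527 regions had 1754 hosts and 1803 assigned genes in 1852 host and gene pairs, of which 1145 had a single region and 119 had at least 5. The spans of host and assigned gene were apart in 2187 regions, the assigned gene lay inside its host in 656, and the spans overlapped in 444. The region itself touched the assigned gene in 88, and no span could be compared for 152. Protein-coding genes were the host of 3314 and the assigned gene of 2584, and 756 were assigned to a long noncoding RNA. A bound region lay within 1 kb of the start site of the host for 2028 of the regions (57.5%). For the start site of the assigned gene this held for 1618 (45.9%), among them the 24 regions that themselves lay under 1 kb from it. Both starts had such a region for 887 (25.1%), and neither for 768 (21.8%).

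Not every mismatch of names was a mismatch of genes. In 54 regions the assigned name was a spreadsheet date number in place of a septin or March-type gene that was the host itself (23 of them in Sept9). In 13 the names were synonyms of 1 gene. In 10, either the assigned gene or the host was a read-through transcript that includes the other. These 77 regions fit the rule and were kept. RefSeq placed the host on another chromosome for 65 regions, of which 14 were named for an intron of Bc1, a brain cytoplasmic RNA gene (13 on chromosome 10 and 1 on X), and 50 had a microRNA gene as host. For these the host name is uncertain. RefSeq spans of the named host held 3446 of the 3517 regions whose host matched.

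The signal in these regions was like that of other intronic regions. The median of their mean values was 17.2 units, against 17.1 in introns of the assigned gene and 17.4 over all regions, and they spanned from 5.97 to 239.9. The strongest 5% of all regions held 4.65% of them, against 4.86% of the comparison regions. Within libraries, the median log2 value of the 3527 minus that of the comparison regions averaged 0.024 (SD 0.083, n = 6). An exact test over sign flips of the 6 libraries gave a two-sided p of 0.5. In AMPKCA replicate 3 and Wildtype replicate 3 the difference was exactly 0, and flipping a 0 changes nothing. The test could therefore not reach 0.05 and decides nothing here. Its smallest p is 0.03125 only where none of the 6 values is 0. Per base of region length the averaged difference was 0.096, with an exact p of 0.0625 in the same kind of test. The median length was 501 bp in the 3527 and 526 bp in the comparison regions.

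The share of reads in regions that fell in the 3527 was 8.89, 9.44 and 9.25% in AMPKCA replicates 1, 2 and 3, against 7.45, 9.14 and 8.91% in Wildtype replicates 1, 2 and 3. The AMPKCA library was higher in each of the 3 batches, but the groups overlapped. The means were 9.19 ± 0.276% in AMPKCA livers and 8.50 ± 0.918% in Wildtype livers (SD, n = 3 each), a difference of 0.693 percentage points with an exact permutation p of 0.3 (two-sided, smallest possible 0.1). Without Wildtype replicate 1 the difference was 0.167 points.

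The median log2(value + 1.797) was 4.29, 4.41 and 4.31 in AMPKCA replicates 1, 2 and 3, against 4.10, 4.31 and 4.31 in Wildtype replicates 1, 2 and 3. The difference of 0.098 had an exact permutation p of 0.4, and it was 0.029 without Wildtype replicate 1. These medians move in steps of whole reads, 1 read being worth up to 1.797 units. Differences this small can thus be of the size of 1 read. Set against introns of the assigned gene in the same library, the genotypes differed by 0.084 on the log2 scale (AMPKCA 0.066 ± 0.069, Wildtype -0.017 ± 0.083, SD, n = 3 each; exact permutation p = 0.3, smallest possible 0.1). Among regions at 10 to 50 kb, with means in place of medians, this difference was 0.0080 (p = 0.9 by the same exact test). A p above the threshold with 3 libraries per group does not show that the levels were alike.

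**Figure D2:**
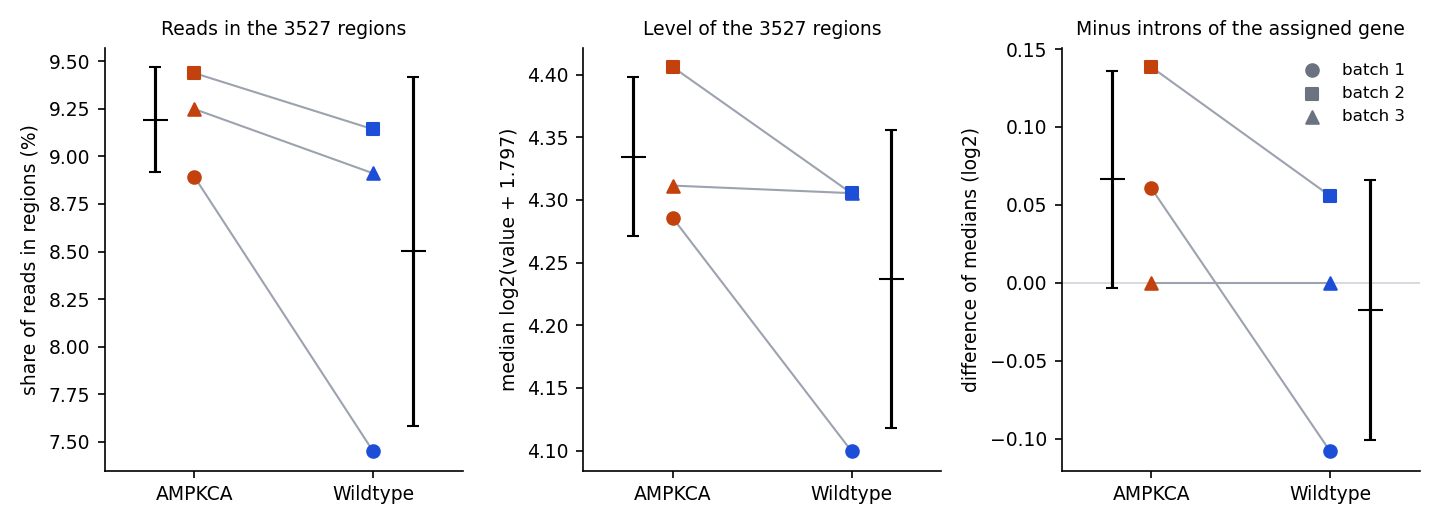
Per-library values by genotype, with AMPKCA at the left, lines joining the libraries of a batch, and bars for mean ± SD (n = 3). The panels show the share of reads in regions (%), the median log2(value + 1.797) of the 3527 regions, and that median minus the median of introns of the assigned gene. Wildtype replicate 1, in batch 1, is the lowest point of every panel.

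Distance to the start site went with the genotype difference in batch 1. There the median AMPKCA minus Wildtype log2 value was -0.66 in the 24 regions under 1 kb, -0.0051 at 1 to 10 kb, 0.17 at 10 to 50 kb, 0.30 at 50 to 100 kb and 0.52 at 100 kb or more. Introns of the assigned gene showed the same order in that batch, with -0.60 under 1 kb and 0.57 at 100 kb or more. In batch 2 the medians of the 3527 lay between -0.26 under 1 kb and 0.075 at 10 to 50 kb, and in batch 3 between 0.039 and 0.078. Batch 1 holds the Wildtype library that stood apart, and its part in this trend and the genotype's cannot be told apart within that batch.

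**Figure D3:**
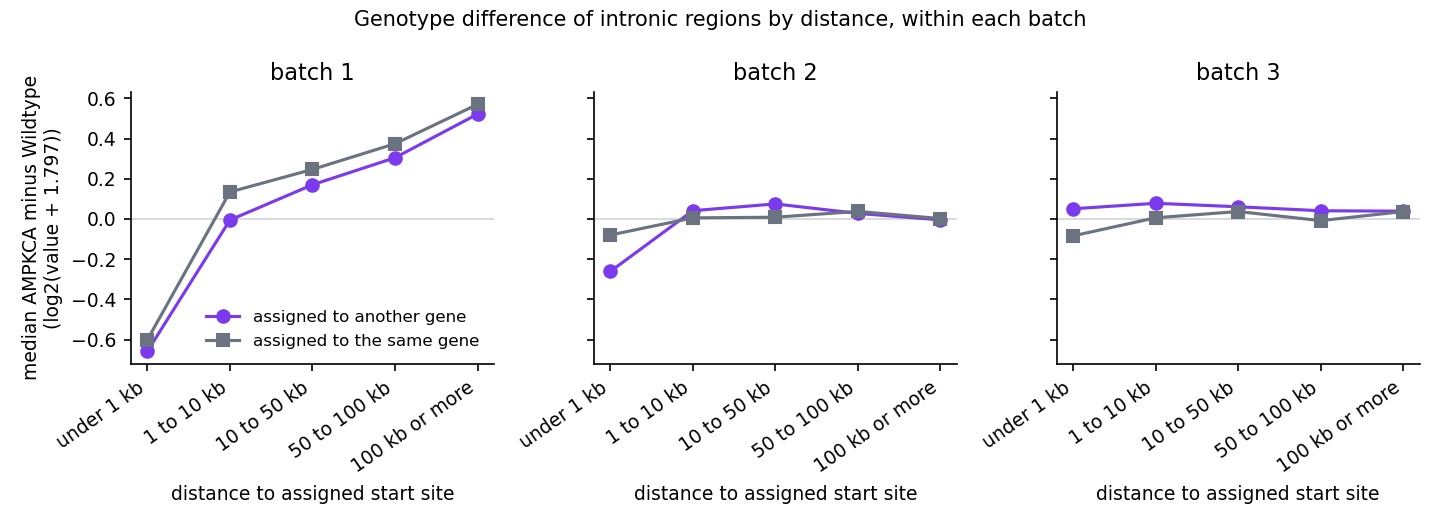
Median AMPKCA minus Wildtype difference in log2(value + 1.797) by class of distance to the assigned start site, in each of the 3 batches, for regions assigned to another gene and for those assigned to the gene whose intron holds them. In batch 1 the medians run from -0.66 to 0.52 for regions assigned to another gene, while in batches 2 and 3 those from 1 kb on lie between -0.0041 and 0.078.

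Genotype was compared region by region with limma, on log2(value + 1.797), over all 39704 regions with Benjamini-Hochberg adjustment. Without batch as a block, limma called 0 of the 3527 at an adjusted p under 0.05, the background being 0% of all regions. At an unadjusted p under 0.05, 88 were higher in AMPKCA livers (2.50%, against 1.46% of all regions) and 20 lower (0.567%, against 0.995%). EdgeR's quasi-likelihood test on the recovered reads also called 0, with 90 at an unadjusted p under 0.05 (2.55%, against 2.11% of all regions).

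With batch as a block, limma called 4 of the 3527, all higher in AMPKCA livers, against 0.0579% of all regions (23 regions). EdgeR with the block called the same 4 regions, against 0.063% of all regions, and DESeq2 with the block called 0. Unadjusted, 227 regions were higher with the block (6.44%, against 4.11% of all regions) and 56 lower (1.59%, against 3.16%). Without batch 1 the unadjusted counts with the block were 185 higher (5.25%, against 3.6% of all regions) and 100 lower (2.84%, against 3.24%). Calls with the block numbered 3 without batch 1, 1 without batch 2 and 2 without batch 3, against 12, 2 and 7 over all regions (0.0302, 0.00504 and 0.0176%). Leaving out Wildtype replicate 1 from the fit without the block gave 5 calls, all higher, against 16 over all regions (0.0403%).

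In 261 regions all 3 AMPKCA values were above all 3 Wildtype values (7.4%, against 4.64% of all regions), and in 91 they were below (2.58%, against 3.27%). Without Wildtype replicate 1 these counts became 422 and 386 (11.96 and 10.94%), against 10.3 and 10.5% of all regions, so that the excess of higher regions was no longer seen at that size. The median log2 difference over the 3527 was 0.12, against 0.046 in introns of the assigned gene and 0.0058 over all regions. Within batches it was 0.22, 0.043 and 0.056 in batches 1, 2 and 3. The share of the 3527 with a positive difference was 60.8, 53.0 and 53.1% in these batches. It was 48.4, 48.8 and 50.1% over all regions, and 53.9, 49.6 and 50.2% in introns of the assigned gene.

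One of the 4 called regions lay in the last intron of Pnpla5, a gene of the patatin-like lipase family that acts on lipid droplets. It (chr15:84112745-84113398, intron 9 of 9) was assigned to Sult4a1, a cytosolic sulfotransferase family gene, 7.3 kb upstream of its start. It had 109.5, 98.0 and 70.8 units in AMPKCA replicates 1, 2 and 3, against 30.02, 18.7 and 43.1 in Wildtype replicates 1, 2 and 3. All AMPKCA values were above all Wildtype values. The log2 difference was 1.59 ± 0.28 (SE with the block), with an adjusted p of 1.1e-04 in limma and 9.1e-05 in edgeR, both with the block. It was also called without Wildtype replicate 1 (adjusted p = 8.8e-04, limma) and, with the block, without batch 1 (1.7e-03) or batch 3 (2.7e-04), but not without batch 2 (0.58).

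The regions around it were higher as well, a neighbourhood that was looked at after the values of this region had been seen. All 10 other regions within 50 kb had a positive log2 difference, between 0.33 and 1.95, and 6 had an unadjusted limma p under 0.05. None of them passed adjustment. The region beside it in intron 7 of Pnpla5, also assigned to Sult4a1 (chr15:84113594-84114383), had 73.2, 67.0 and 58.3 units in AMPKCA livers, against 42.0, 35.2 and 44.9 in Wildtype livers.

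A region in intron 6 of 6 of Sult4a1 (chr15:84079904-84080249), assigned to Efcab6, an EF-hand protein gene, had 21.7, 17.5 and 19.5 units in AMPKCA livers, against 5.34, 5.99 and 3.595 in Wildtype livers. The groups did not overlap at either of these regions, and unadjusted limma p-values were 0.036 and 0.0039. Beyond the start of Pnpla5, 18.7 kb from the called region, an intergenic region (chr15:84131467-84132422) had 43.5, 38.8 and 34.7 units in AMPKCA livers, against 22.7, 5.99 and 16.2 in Wildtype livers. The region farthest along, 43.1 kb away and assigned to Pnpla3, the lipid droplet gene next to Pnpla5, had 44.3, 51.4 and 62.5 units in AMPKCA livers, against 44.0, 51.7 and 30.6 in Wildtype livers, and there the groups overlapped.

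The region in intron 11 of 14 of Pepd, which encodes the dipeptidase prolidase, was assigned to Cebpg, a bZIP transcription factor gene whose start lay 27.1 kb away (chr7:35029226-35029793). It is the region whose overlap with the Gm35484 start is printed above. Its values were 41.9, 42.7 and 45.8 units in AMPKCA livers, against 18.01, 10.5 and 8.99 in Wildtype livers, and the groups were well apart. The log2 difference was 1.71 ± 0.37 (SE), with an adjusted limma p of 0.011 with the block and an edgeR p of 0.022. The 3 neighbours within 50 kb had log2 differences of 0.04 to 0.55. At the start of Pepd, the strongest bound region had 39.9 ± 5.27 units in AMPKCA livers and 42.3 ± 14.3 in Wildtype livers (SD, n = 3 each), so the difference in the intron was not seen at the start of the host. With the block the call held without batch 1 (limma adjusted p = 6.4e-03) and was lost without batch 2 (0.55) or batch 3 (0.67).

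In intron 3 of 5 of Pced1b, a region assigned to Amigo2, which encodes a leucine-rich repeat adhesion protein, lay 34.7 kb upstream of the Amigo2 start (chr15:97281739-97282260). It had 125.6, 74.7 and 66.7 units in AMPKCA livers, against 10.01, 51.7 and 27.0 in Wildtype livers. Its adjusted limma p was 2.8e-05 with the block. The within-batch differences were uneven, at 3.43, 0.52 and 1.25 on the log2 scale. The limma SE with the block was 0.29, a value that also draws on the spread of other regions. Without batch 1 the difference was 0.88 with an adjusted limma p of 0.40. Of the 5 other regions within 50 kb, the 3 assigned to Amigo2 had log2 differences between -0.01 and 0.38, and the 2 assigned to Pced1b had 0.36 and -1.03. The last of these was lower in AMPKCA livers, opposite to the called region, with an unadjusted limma p of 0.046 (chr15:97235265-97235601).

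The last call rested on few reads. Intron 8 of 24 of Myt1l, a neural zinc-finger factor gene, held a region assigned to C630031E19Rik, an unnamed transcript inside Myt1l (chr12:29800430-29800969). It had 36, 15 and 19 reads in AMPKCA replicates 1, 2 and 3, against 1, 3 and 8 in Wildtype replicates 1, 2 and 3. Scaled, these were 29.0, 14.6 and 26.4 units in AMPKCA livers, against 0.667, 2.25 and 14.4 in Wildtype livers, where the lowest AMPKCA value was just above the highest Wildtype value. The adjusted limma p with the block was 0.030, and leaving out any batch ended the call (0.56, 0.34 and 0.11 without batches 1, 2 and 3).

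Leaving out Wildtype replicate 1 added 3 regions to the limma calls without the block, beside those at Sult4a1 and Cebpg. They were in intron 10 of Me1, the cytosolic malic enzyme that supplies NADPH for lipid synthesis (assigned to Rwdd2a), in Ttc38 (assigned to Gtse1), and in Ppp4r4 (assigned to Serpina10). The Me1 region (chr9:86596911-86597724) had 95.0, 42.7 and 122.2 units in AMPKCA livers, against 85.4, 20.2 and 28.8 in Wildtype livers, and the groups overlapped through Wildtype replicate 1. These 3 were singled out after their values were seen.

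Of the regions that were not called, those with the smallest limma p-values in each direction are described next. In intron 4 of 21 of Atp2b2, a plasma membrane calcium pump gene, a region assigned to Sec13, a coat protein gene of vesicles leaving the endoplasmic reticulum (chr6:113828399-113828854), lay 87.9 kb upstream of the Sec13 start. It had 35.4, 37.8 and 33.3 units in AMPKCA livers, against 16.01, 14.98 and 7.19 in Wildtype livers, with an unadjusted limma p of 0.0025. The 4 neighbouring Atp2b2 regions within 50 kb, all assigned to Sec13, were also higher, by 0.14 to 1.62 on the log2 scale, and 2 of them had an unadjusted p under 0.05.

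In intron 3 of 26 of Dapk1, a death-associated kinase gene, a region assigned to BC051665 (chr13:60708059-60708611) had 37.8, 34.9 and 45.8 units in AMPKCA livers, against 14.0, 21.7 and 10.8 in Wildtype livers. Of its 10 neighbours within 50 kb, 7 had a positive difference and 0 had an unadjusted p under 0.05. The higher value was thus not shared across the Dapk1 introns in the way it was across Pnpla5. The adjusted limma p with the block was 0.16 at Sec13 and 0.22 at BC051665.

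The 5 regions with the smallest limma p among those lower in AMPKCA livers follow. In intron 1 of 2 of Nr2f2, a region assigned to the unnamed transcript B130024G19Rik (chr7:70358758-70360026) had 47.5, 57.2 and 38.9 units in AMPKCA livers, against 89.4, 81.6 and 68.3 in Wildtype livers. Nr2f2 encodes COUP-TFII, a nuclear receptor that can bind the same direct repeats as HNF4a. In intron 14 of 20 of Dis3l2, an RNA exonuclease gene, the region assigned to Alppl2, an alkaline phosphatase gene (chr1:87032005-87032861), had 54.7, 40.8 and 62.5 units in AMPKCA livers, against 100.1, 99.6 and 77.3 in Wildtype livers.

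In intron 3 of 4 of Zbtb7c, the region assigned to 2900057B20Rik (chr18:76058548-76059965) had 33.0, 34.0 and 32.0 units in AMPKCA livers, against 82.7, 56.2 and 53.9 in Wildtype livers. The Pde4dip intron 1 region assigned to Sec22b, a membrane fusion protein gene (chr3:97867643-97868625), had 20.9, 29.1 and 22.2 units in AMPKCA livers, against 56.7, 35.2 and 46.7 in Wildtype livers. At these 4 regions the groups did not overlap. At the Cadps2 region assigned to Rnf133 (chr6:23628805-23629250) they did, with 11.3, 26.2 and 9.72 units in AMPKCA livers, against 20.01, 44.2 and 37.8 in Wildtype livers. Unadjusted limma p-values of these 5 lay between 0.010 and 0.025 without the block, and the smallest adjusted p with the block was 0.36. Among neighbours within 50 kb, 4 of 7 at Nr2f2 and 2 of 3 at Dis3l2 were also lower. At Zbtb7c this held for 3 of 6 and at Pde4dip for 4 of 5. An unadjusted limma p under 0.05 was reached by 1 neighbour at Dis3l2 (log2 difference -0.83). At Pde4dip it was reached by 1 that went the other way (1.18).

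**Figure D4:**
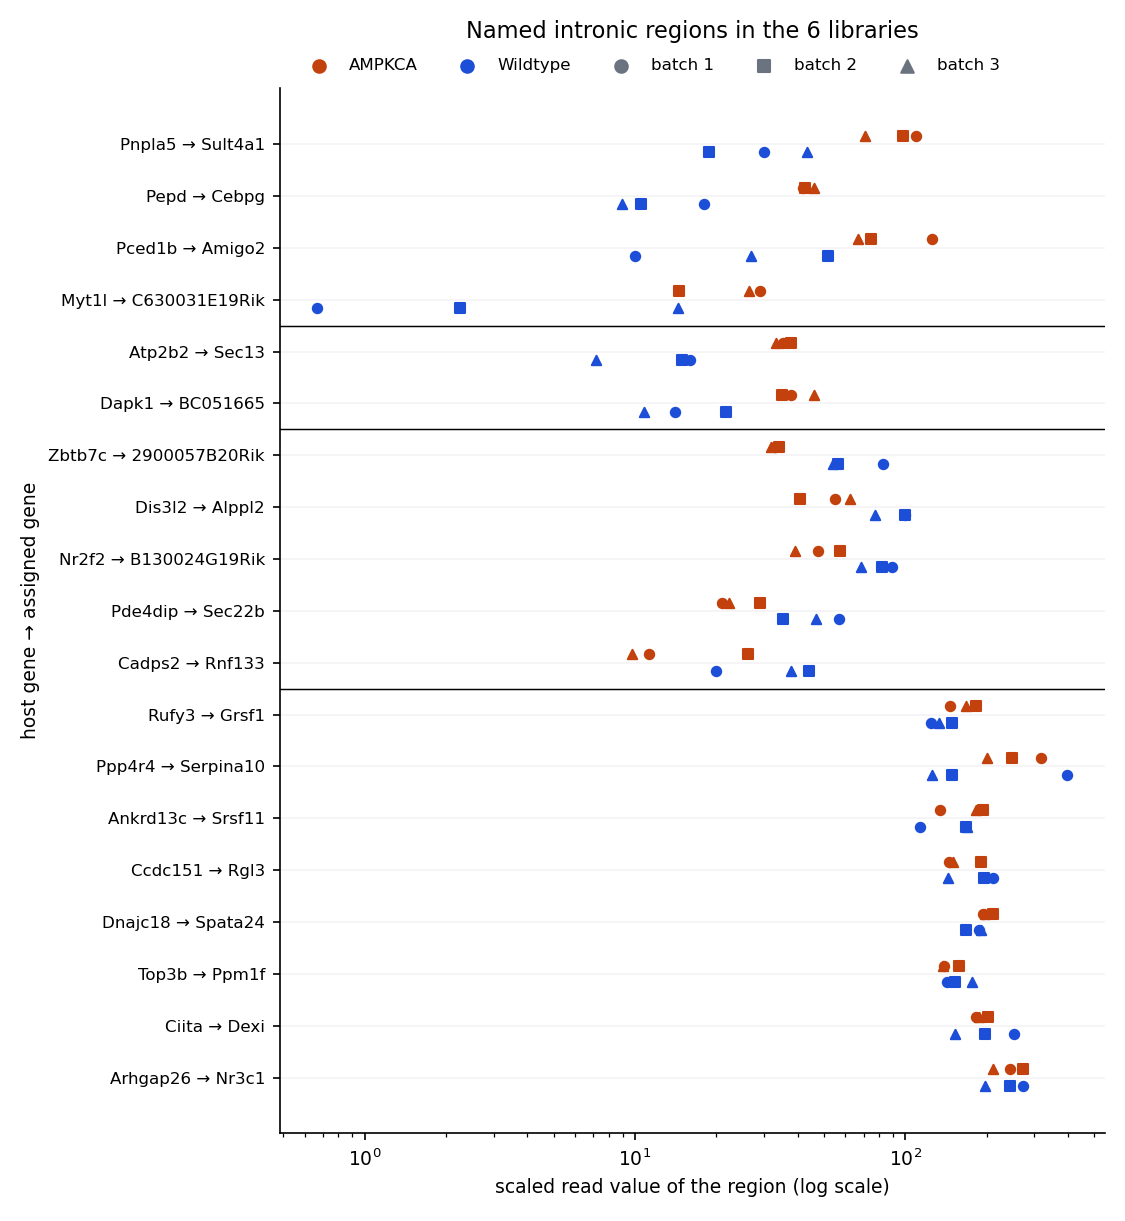
Scaled read value (log scale) in each library of 19 named regions, with AMPKCA points above Wildtype points and marker shapes for the batches. From the top, the groups are regions called with batch as a block, further regions with the smallest limma p among higher and then among lower regions, and the 8 strongest regions between named genes. At the 4 called regions every AMPKCA value exceeds every Wildtype value, while among the strongest regions the genotypes overlap except at Dnajc18.

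The strongest regions differed little between the genotypes. The strongest of all 3527 lay in the last intron of Arhgap26, a GTPase-activating protein gene, 122.7 kb from the start of Nr3c1, the glucocorticoid receptor gene to which it was assigned (chr18:39363822-39365335). It had 243.1, 271.7 and 211.1 units in AMPKCA livers, against 271.5, 244.1 and 197.7 in Wildtype livers, a log2 difference of 0.03 ± 0.20 (SE, limma without the block). The other 5 Arhgap26 regions assigned to Nr3c1 had means of 7.71 to 13.3 units. One of them, in intron 17 (chr18:39264518-39264968), had 14.5, 25.2 and 16.7 units in AMPKCA livers, against 2.00, 7.49 and 5.39 in Wildtype livers, with an unadjusted limma p of 0.0076 and an adjusted p of 0.31 with the block.

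The next in strength, in intron 23 of 24 of Ppp4r4, was assigned to Serpina10, which encodes an inhibitor of coagulation factor Xa (chr12:103608891-103610389). It had 317.9, 248.4 and 200.03 units in AMPKCA livers, against 396.9, 149.0 and 125.8 in Wildtype livers, so that Wildtype replicate 1 was the highest library and the other Wildtype libraries the lowest. The log2 difference was 0.36 ± 0.30, and without Wildtype replicate 1 it was 0.87 (limma adjusted p = 0.048).

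Of the next 6 strongest in which both genes are named, 3 with an unnamed transcript being passed over, the region of Dnajc18 assigned to Spata24 had 194.0, 210.5 and 197.2 units in AMPKCA livers, against 187.4, 167.0 and 190.5 in Wildtype livers, and its groups did not overlap. The Rufy3 region assigned to Grsf1, a mitochondrial RNA-binding protein gene, had 145.7, 182.4 and 168.1 units in AMPKCA livers, against 124.1, 149.0 and 133.0 in Wildtype livers. The others were in Ciita, the regulator of MHC class II genes (assigned to Dexi), Ccdc151 (Rgl3), Ankrd13c (Srsf11) and Top3b (Ppm1f). Limma differences of the 6 lay between -0.17 and 0.28 on the log2 scale, each with an unadjusted p above 0.2.

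Some hosts held many regions named for 1 distant neighbour. Rora, the gene of a nuclear receptor of the circadian clock, held 24 regions assigned to Ice2, a subunit gene of the little elongation complex, which lay 58.6 to 291.3 kb downstream of them. Their means spanned 9.69 to 84.0 units. The strongest, in intron 1 (chr9:69183792-69184373), had 70.0, 91.2 and 90.3 units in AMPKCA livers, against 66.7, 94.4 and 91.7 in Wildtype livers. The log2 difference was positive in 16 and negative in 8 of the 24, where 62.1% of the 3527 and 50.6% of all regions were positive. In none of the 24 did all AMPKCA values lie on 1 side of all Wildtype values. Over all regions they lay above in 4.64% and below in 3.27%. These shares are small, so the lack of such a region among 24 shows little about Rora.

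Kalrn, a guanine nucleotide exchange factor gene, held 15 regions assigned to Umps, the enzyme of the last steps of uridine monophosphate synthesis. The strongest of these (chr16:34029552-34030337) had 148.9, 145.5 and 155.6 units in AMPKCA livers, against 133.4, 161.7 and 118.6 in Wildtype livers. Ptprd, a receptor tyrosine phosphatase gene, held 16 regions assigned to Tmem261 from 937.1 to 1207 kb away, the 3 farthest of all among them. Their means were 7.58 to 53.2 units and the difference was positive in 13 (62.1% positive over the 3527, 50.6% over all regions). Mob3b held 19 regions, assigned to Ifnk and Platr9, with 9 positive and 10 negative differences, and Nav2 held 12 assigned to Dbx1, with 6 positive and 6 negative.

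**Figure D5:**
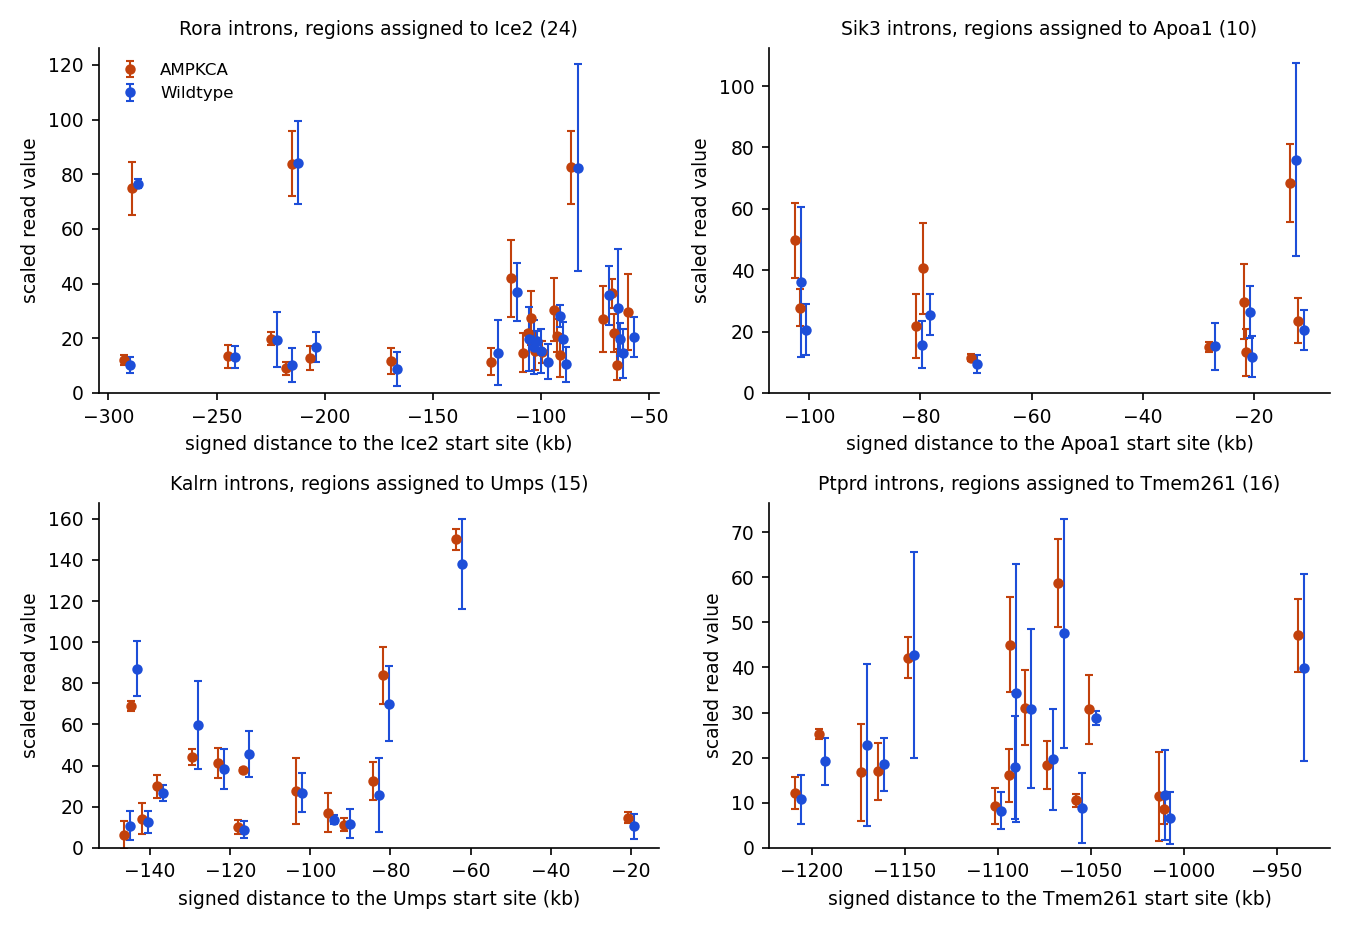
Mean ± SD (n = 3) of the scaled read value in AMPKCA and Wildtype livers against the signed distance (kb) to the start site of the assigned gene, for regions in introns of Rora, Sik3, Kalrn and Ptprd. Points of a pair are shifted slightly apart, with AMPKCA left. In the Rora panel the strongest region has means of 83.8 in AMPKCA livers and 84.2 in Wildtype livers.

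The regions were also followed through lists of genes by function, once by assigned gene and once by host. In the fit without the block 0 regions of any list passed adjustment. With the block, calls fell in the lists of liver transcription factors (1 of 11 regions by assigned gene, at Cebpg), drug metabolism and transport (1 of 32 by assigned gene, at Sult4a1), fatty acid and triglyceride metabolism (1 of 28 by host, at Pnpla5), and hosts of distant enhancers known from other tissues (1 of 9, at Pepd). The Sult4a1 and Pnpla5 entries are the same region, as are the Cebpg and Pepd entries. Over all regions 0.0579% were called in limma with the block. The remaining lists had 0 calls. The counts of positive differences below stand beside 62.1% positive and a median of 0.12 over the 3527 regions, and 50.6% positive and a median of 0.0058 over all regions.

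Apolipoprotein, cholesterol and bile acid genes were the assigned gene of 19 regions, with a positive difference in 16 and a median log2 difference of 0.29, against 0.12 over the 3527. Of these, 10 were the regions in Sik3, a kinase gene of the AMPK-related family, assigned to the apolipoprotein gene Apoa1, so they are not independent positions. The difference was positive in 9 of the 10. The strongest, in intron 21 of 24 and 12.9 kb upstream of Apoa1 (chr9:46214948-46216457), had 53.9, 76.7 and 75.01 units in AMPKCA livers, against 64.04, 111.6 and 52.1 in Wildtype livers. The region with the largest difference, in intron 2 (chr9:46126297-46126763), had 36.2, 60.2 and 52.8 units in AMPKCA livers, against 14.0, 62.2 and 32.4 in Wildtype livers. The groups overlapped at each of the 10, while over all regions AMPKCA values lay wholly above in 4.64% and wholly below in 3.27%.

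A region in intron 3 of Nim1k assigned to Hmgcs1, the cytosolic synthase of the cholesterol pathway (chr13:119712929-119713537), had 20.1, 28.1 and 27.8 units in AMPKCA livers, against 8.01, 12.7 and 16.2 in Wildtype livers, with an unadjusted limma p of 0.037. As hosts, cholesterol and bile acid genes held 8 regions, 6 of them with a positive difference, among them 4 in the cholesterol exporter gene Abca1.

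Genes of fatty acid and triglyceride metabolism hosted 28 regions, with a positive difference in 21 and a median of 0.20 (0.12 over the 3527), and were the assigned gene of 10, with a positive difference in 6. The strongest of the 10, in the last intron of Ccdc57 and 6.5 kb upstream of Fasn, the fatty acid synthase gene (chr11:120830574-120831503), had 141.7, 79.6 and 69.5 units in AMPKCA livers, against 122.7, 82.4 and 91.7 in Wildtype livers. The groups overlapped there.

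AMPK, mTOR and insulin pathway genes hosted 37 regions, 28 of them with a positive difference and a median of 0.18 (0.12 over the 3527), of which 10 are the Sik3 regions above. Prkag2, the gene of a gamma subunit of AMPK, held 8, all assigned to its antisense transcript Prkag2os1. The strongest (chr5:24930699-24932151) had 99.0, 83.4 and 65.3 units in AMPKCA livers, against 120.1, 83.1 and 88.1 in Wildtype livers. A weaker region in intron 3 (chr5:24960528-24961185) had 36.2, 25.2 and 32.0 units in AMPKCA livers, against 22.7, 5.24 and 16.2 in Wildtype livers, and its groups did not overlap with an unadjusted limma p of 0.020 and an adjusted p of 0.41 with the block. The Irs2 start printed above, where insulin receptor substrate 2 is transcribed, lay in a region with 70.8, 69.9 and 69.5 units in AMPKCA livers, against 113.4, 76.4 and 70.1 in Wildtype livers.

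Nuclear receptor and coregulator genes hosted 27 regions, 13 with a positive and 14 with a negative difference. The strongest held the Rara start printed above; Rara encodes a retinoic acid receptor, and the region was assigned to Gjd3 (chr11:98963436-98965555). It had 88.5, 132.0 and 97.2 units in AMPKCA livers, against 171.4, 137.0 and 125.8 in Wildtype livers, with overlap. Ppara, the receptor that drives hepatic fatty acid oxidation, held 5 regions assigned to Cdpf1, with log2 differences between -0.58 and 0.20.

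Among liver transcription factors, Foxa1, the pioneer factor gene, was assigned 4 regions in the neighbouring gene Mipol1. Zbtb20 intron 2 (assigned to Gm15713) had 90.1, 104.8 and 98.6 units in AMPKCA livers, against 31.4, 101.1 and 57.5 in Wildtype livers.

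The remaining lists had differences in both directions. Glucose metabolism genes hosted 12 regions, 9 of them with a negative difference, and were the assigned gene of 7, 5 with a positive one. Drug metabolism and transport genes were assigned 32 regions, 15 positive and 17 negative; the strongest, in Ttbk1 and assigned to the organic anion transporter gene Slc22a7, had 137.6, 129.0 and 137.5 units in AMPKCA livers, against 200.1, 145.3 and 120.4 in Wildtype livers. Plasma protein genes were assigned 27, 13 positive and 14 negative. In 3 of the 27 all AMPKCA values lay above all Wildtype values (4.64% of all regions), and in 1 below (3.27%). Among the 3, the region in Zfp618 assigned to Ambp (chr4:63060376-63060753) had 24.1, 28.1 and 25.003 units in AMPKCA livers, against 8.67, 13.5 and 16.2 in Wildtype livers. It was picked after its values were seen. Circadian clock genes hosted 36, most of them the Rora regions, with 26 positive. Amino acid genes were assigned 15, with 10 positive, cell cycle genes 12, with 6 positive, and markers of other liver cell types 2, with 2 positive.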

How the data were processed

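HNF4a chromatin was sequenced in 3 AMPKCA and 3 Wildtype liver libraries. Library kits were from Takara or NEB, per the labels, which do not assign them to libraries. Per the submitters' processing notes, the tools were, among others, HOMER, SICER, MACS2, BWA and Picard, listed without version or role, and the build was mm10 (GRCm38). The deposited signal is a normalised read number per region. Every value was a whole multiple of the smallest value of its library (100% within 1e-06), so reads were recovered by division, and edgeR's TMM scaling of those reads gave back the deposited values to within a relative difference of 6.1e-15.

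Region, host, intron, assigned gene and distance were read from the table, and spans and sequences from RefSeq. All fits ran over the 39704 regions: limma 3.58.1 (trend and robust) on log2(value + 1.797), where 1.797 equals 0.1 of the median of values above 0 and the model holds genotype alone; batch as a block, edgeR 4.0.16, DESeq2 1.42.0 and other settings were alternatives. Each batch held 1 library of each genotype, and the labelled batch pairs them: deviations of same-batch libraries correlated at 0.53, 0.49 and 0.046 in batches 1, 2 and 3. Values per library were compared by exact permutation. Each library title carries a code of its own, but no label says what the code stands for or that libraries came from separate animals. The p-values therefore refer to libraries and not to animals. In limma, the SE and p-value of a region also draw on the spread of all 39704 regions. They can thus be smaller than the region's own libraries alone would give. None of the 15 library pairs agreed within counting noise (smallest chi-square per degree of freedom 1.55). Limma was also run on simulated counts over 39704 regions, with 100 regions changed 4-fold and 100 changed 2-fold. Without the block it recovered 88% of the 4-fold and 21% of the 2-fold regions, and with the block 92 and 23%. False calls numbered 6 without and 12 with the block. The changed regions were drawn from those with a mean above the median, so recovery of weaker regions was not simulated. No difference between batches was simulated either. These shares describe the simulated counts only. Recovery in the libraries themselves, where Wildtype replicate 1 stood apart, was not tested.

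The set of regions and the gene lists were chosen with earlier results of these data known. Named regions were those called in either limma fit, up to 5 per direction with the smallest p among regions of at least median level and 1 sign in all batches, the 8 strongest with both genes named, the strongest per list, those of the 5 hosts and 5 assigned genes with most regions, and the 3 farthest; others were named after their values were seen. Some results are not reported here.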

Additional observations from a re-analysis of the deposited data

How the results depend on the processing

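The number of the 3527 regions called in limma without the block was 0, and the alternatives changed it only where batch or 1 library was handled differently. With the replicate block by batch it was 4 in limma and 4 in edgeR; with that block and a batch left out it was 3, 1 and 2 without batches 1, 2 and 3. It was between 0 and 5 with single libraries left out, the 5 being without Wildtype replicate 1. It stayed 0 in edgeR without the block, in DESeq2 with the block, with TMM scaling, with the larger pseudocount, above the lower quartile of levels and without the 77 regions whose names are 1 gene. The levels, shares and differences per library kept their direction under all settings run, including the paired test. Their genotype p-values could not pass 0.05, the smallest possible being 0.1 with 3 against 3 and 0.25 with 3 pairs. The level difference between genotypes lay between 0.029 and 0.15, lowest without Wildtype replicate 1, and the difference in share between 0.167 and 1.01 percentage points. Of 815 comparisons of 51 named regions with an alternative, 778 were scored as the same, 21 moved by more than 1 SE and 16 passed the threshold. The reference was limma without the block, which called none of them. For the 11 regions named for a call or a small p, the same means only that no call was made, whatever the value. A call with the block that was lost on leaving out a batch is thus scored as the same. For the other regions it also means a difference within 1 SE. The sign changed in 80 of the 815, in 27 regions, each time with an adjusted p of at least 0.791 under that setting, and in 0 of the 11 regions named for a call or a small p. Depth limits the weaker regions: 1 read was worth up to 1.797 units against a median level of 17.2. The choices of mean in place of median, of distance-matched genotype differences and of leaving out regions with 1 gene under 2 names were made after seeing the data.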
